A study of Arabidopsis thaliana with 6 samples.

Results

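The organic cation transporter genes of Arabidopsis thaliana, OCT1 to OCT6, are described here across 6 polyA RNA-seq libraries of roots. The members were set by gene ID as OCT1 (AT1G73220), OCT2 (AT1G79360), OCT3 (AT1G16390), OCT4 (AT3G20660), OCT5 (AT1G79410) and OCT6 (AT1G16370), which is 6 of the 29613 gene IDs counted. The family was selected on the high level of OCT1 in the libraries of replicate 2 (letter B in their titles), so every difference between replicate 2 and the other replicates is given below as a description, with no test. The difference between genotypes played no part in that choice and was tested. Wild type, ecotype Col-0, had 3 libraries, as did the genotype 35S:NPC48, in which 35S drives NPC48, a transcript described as an RNA that codes for no protein. 35S is a broadly active promoter of cauliflower mosaic virus. The labels record an ecotype for the wild type libraries only, and do not say how many independent transgenic lines were pooled. All plants were grown without treatment on a 10-fold diluted MS medium with phosphate at 500 µM, in air of 33% humidity, under a 16 h light period at 24 °C and an 8 h night at 21 °C, and roots were taken at Boyes stage 1.0. The level of NPC48 itself was not analysed here.

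Organic cation transporters are membrane proteins of the major facilitator superfamily, related to the animal OCT and OCTN carriers that move positively charged metabolites such as choline, carnitine and polyamines. In Arabidopsis, OCT1 has been placed at the plasma membrane and linked to carnitine transport and to vascular tissue of the root, while several of the other members have been placed at the membrane of the vacuole, and members of the family have been described as responsive to drought, cold or salt. OCT1 is also known among genes that respond to phosphate shortage. In that response, the transcription factor PHR1 binds an element called P1BS, and plants replace membrane phospholipids by lipids without phosphorus, which releases head groups such as choline.

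Total counts ranged from 9479418 in 35S:NPC48 replicate 1 to 23830604 in wild type replicate 3, and 19608 genes passed the filter on low counts. Root markers were present in all libraries, with all 12 genes of the list detected and a summed level between 7261 and 12181 CPM, most of it PYK10, a root beta-glucosidase. The summed level of the 12 shoot markers was 175 CPM in wild type replicate 3 and 192 CPM in 35S:NPC48 replicate 1, against 64.9 to 111 CPM in the other libraries. Replicate 2 of both genotypes stood apart. The summed level of 14 genes known to be raised under low phosphate was 9272 CPM in wild type replicate 2 and 8406 CPM in 35S:NPC48 replicate 2, and between 186 and 230 CPM in the other 4 libraries, although the labels give the same phosphate supply for all 6. For the OCT genes and the gene lists, values without replicate 2 are given where that turns a direction or a call.

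OCT1, OCT2, OCT3, OCT5 and OCT6 lie on chromosome 1 and OCT4 on chromosome 3 of the reference assembly TAIR10.1. OCT6 and OCT3 form a close pair on the plus strand at chr1:5596633-5598447 and chr1:5602786-5604770, with 1 protein-coding gene between them. OCT2 and OCT5 lie on the minus strand at chr1:29853960-29855872 and chr1:29867854-29869784, with 4 protein-coding genes between them. The other members are OCT1 at chr1:27538190-27540235 on the plus strand and OCT4 at chr3:7225037-7228797 on the minus strand. OCT2, OCT3, OCT5 and OCT6 have a single exon, whereas OCT1 and OCT4 have 2 exons, split by an intron of 103 bases in OCT1 and 1659 bases in OCT4.

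The genes that are alike in sequence were not the neighbours. In global alignments of the coding sequences, OCT5 and OCT6 shared 76.4% of aligned bases and OCT2 and OCT3 shared 74.0%, while the other 13 of the 15 pairs lay between 58.1% and 62.4%. The longest run of bases that any 2 members have in common is 31 bases long, in OCT5 and OCT6, and is shown because it is the place where reads of the family could most easily be confused. Capitals mark the shared run. The line of OCT5 covers coding bases 953 to 1013 (chr1:29868572-29868632, minus strand) and that of OCT6 coding bases 971 to 1031 (chr1:5597732-5597792, plus strand), counted from the first base of the start codon, both 5′ to 3′ from the RefSeq copy of TAIR10.1, and they are identical at 51 of 61 positions.
OCT5: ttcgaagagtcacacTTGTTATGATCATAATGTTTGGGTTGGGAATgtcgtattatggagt
OCT6: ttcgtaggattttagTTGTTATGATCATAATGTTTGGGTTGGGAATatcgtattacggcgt
Of all windows of 50 bases in the 6 transcripts, 0 occurred elsewhere in the genome on either strand. The sources used here do not state the read length or the strand setting of the counting. The 3′ end of OCT1 overlaps AT1G73230 on the other strand by 8 bases, and that of OCT6 overlaps AT1G16380 by 37 bases. AT1G73230 held 1746 to 4729 counts per library, and AT1G16380, annotated as ATCHX1, was listed at 0 in all 6.

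OCT1 was the member with the widest range of levels. The wild type libraries of replicates 1, 2 and 3 held 11, 8028 and 8 counts, and the matching 35S:NPC48 libraries held 3, 5096 and 1. As CPM, counts scaled to a common library size with TMM factors, these were 0.490, 381 and 0.337 for wild type and 0.320, 256 and 0.050 for 35S:NPC48. Both libraries of replicate 2 were high and the other 4 held at most 11 reads each, where AT1G73230, which overlaps its 3′ end, held at least 1746, and the part of that overlap in the low counts was not tested. The CPM ratio of replicate 2 to replicates 1 and 3 pooled was 925 in wild type (exact 95% interval 592 to 1538) and 1878 in 35S:NPC48 (733 to 6895). These intervals, like all others on single libraries here, cover counting error only, since reads without molecular identifiers are not independent molecules. The second ratio rests on 4 reads in its denominator, and its interval spans the first. On the log2 CPM scale with a prior count of 2, replicate 2 differed from the mean of the others by 9.54 within wild type and 9.98 within 35S:NPC48, and by the mean of both values OCT1 ranked as number 2 of the 19608 tested genes.

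**Figure D1:**
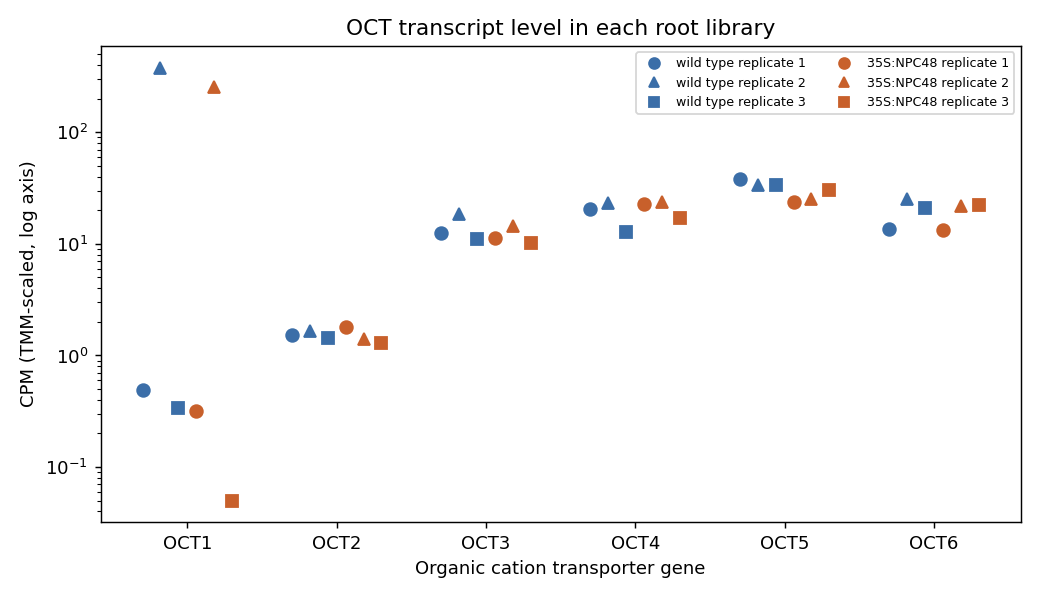
CPM of each OCT gene in each library on a log axis, with colour for the genotype and symbol for the replicate number. OCT1 lies at 381 and 256 CPM in the libraries of replicate 2 and at or below 0.490 CPM in the other 4, while each other member stays within a narrow band.

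No other member showed such a pattern. Of the 6 genes, 1 was at least 2-fold higher in replicate 2 than in both other replicates in both genotypes, and that was OCT1, which the choice of the family fixes. Among all tested genes the share was 2.24%. No member was at least 2-fold lower by the same rule, which 1.22% of tested genes met.

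OCT3 was higher in replicate 2 as well, but by far less. In the order of replicates 1, 2 and 3, wild type gave 12.6, 18.4 and 11.1 CPM, and 35S:NPC48 gave 11.2, 14.5 and 10.2 CPM, so that both replicate 2 libraries were above the other 4. The CPM ratio of replicate 2 to the other replicates was 1.56 (1.37 to 1.78) in wild type and 1.38 (1.17 to 1.62) in 35S:NPC48. On the log2 scale replicate 2 differed by 0.64 in wild type and 0.44 in 35S:NPC48, where replicates 1 and 3 differed from each other by 0.18 and 0.13.

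OCT4 was lowest in both libraries of replicate 3. The wild type libraries, again from replicate 1 to 3, were at 20.5, 23.3 and 12.8 CPM, and the 35S:NPC48 libraries were at 22.7, 23.5 and 17.1 CPM. Replicate 2 was above both others in each genotype, but by little over replicate 1, and the log2 difference of replicate 2 from the mean of the others, 0.53 and 0.26, was smaller than the difference between replicates 3 and 1, 0.68 and 0.41.

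OCT6 was lowest in both libraries of replicate 1. Its wild type levels for replicates 1, 2 and 3 were 13.6, 25.5 and 20.8 CPM, beside 13.4, 22.0 and 22.5 CPM for 35S:NPC48. The other 4 libraries thus lay between 20.8 and 25.5 CPM, and replicate 2 of 35S:NPC48 was not above its replicate 3. OCT6 and its closest relative in sequence, OCT5, were both lowest in 35S:NPC48 replicate 1, whereas among the wild type libraries OCT6 was lowest in replicate 1 and OCT5 in replicate 3.

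OCT5 and OCT2 did not follow replicate 2. For OCT5, replicates 1, 2 and 3 gave 37.9, 33.8 and 33.6 CPM with wild type roots, and 23.9, 25.4 and 30.4 CPM with 35S:NPC48 roots. OCT2 was weakly expressed throughout, at 1.51, 1.66 and 1.43 CPM for wild type and 1.81, 1.41 and 1.30 CPM for 35S:NPC48, from 17 to 35 counts per library. The log2 difference of replicate 2 within wild type and within 35S:NPC48 was -0.077 and -0.084 for OCT5, and 0.16 and -0.12 for OCT2.

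The family's counts were divided differently in replicate 2. OCT1 held 78.7% of all OCT counts in wild type replicate 2 (Wilson 95% interval 77.9% to 79.5%) and 74.6% in 35S:NPC48 replicate 2 (73.6% to 75.7%). In the other 4 libraries its share was between 0.0614% and 0.566%, and OCT5 held the largest share, from 32.6% in 35S:NPC48 replicate 1 to 43.8% in wild type replicate 1. The summed level of the family was 483 CPM in wild type replicate 2 and 343 CPM in 35S:NPC48 replicate 2, and 73.3 to 86.5 CPM elsewhere. Without OCT1 the sum was 103 and 86.9 CPM in the libraries of replicate 2, and 73.0 to 86.1 CPM in the others.

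**Figure D2:**
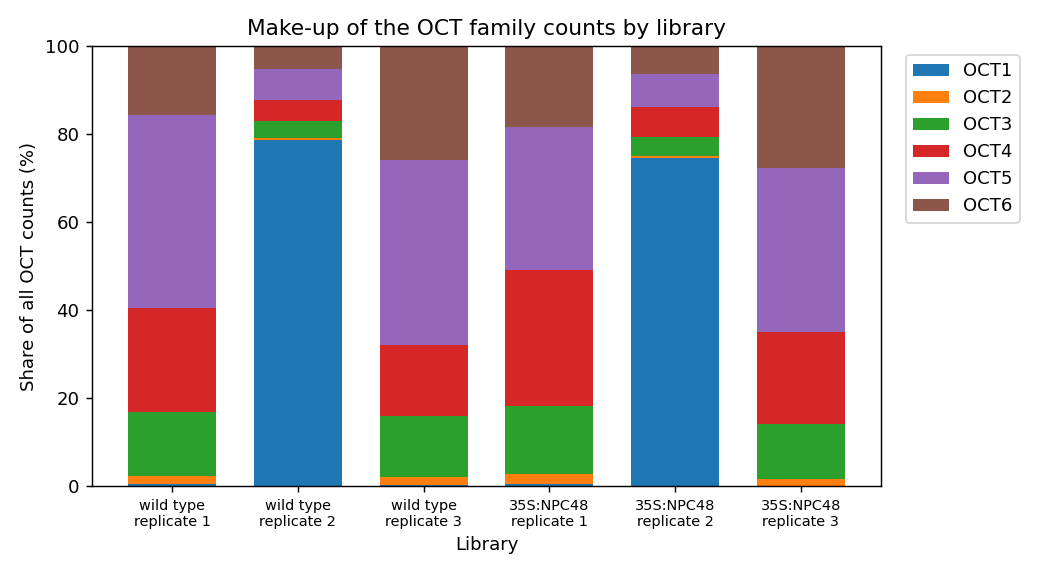
Share of all OCT counts held by each gene, in percent, with 1 stacked bar per library. OCT1 fills 78.7% and 74.6% of the bars of replicate 2 and at most 0.566% of the others, where OCT5 is the largest part.

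To compare levels between genes, CPM was divided by the coding length in kb. In the 4 libraries of replicates 1 and 3, OCT5 stood at 20.3 ± 3.81 CPM per kb, OCT4 at 11.5 ± 2.74, OCT6 at 11.2 ± 3.03, OCT3 at 7.23 ± 0.623, OCT2 at 0.956 ± 0.137 and OCT1 at 0.185 ± 0.113 (SD, n = 4 libraries of both genotypes). Each gene was above the next in all 4 libraries, except that OCT4 exceeded OCT6 in 2 of 4. In the libraries of replicate 2, OCT1 was first with 235 and 158 CPM per kb, and OCT5 followed with 21.8 and 16.4. Over all 6 libraries OCT1 had a mean of 65.6 CPM per kb but a median of 0.255, so its mean describes none of them. Ranked by exonic length instead, OCT4 and OCT6 changed places.

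**Figure D3:**
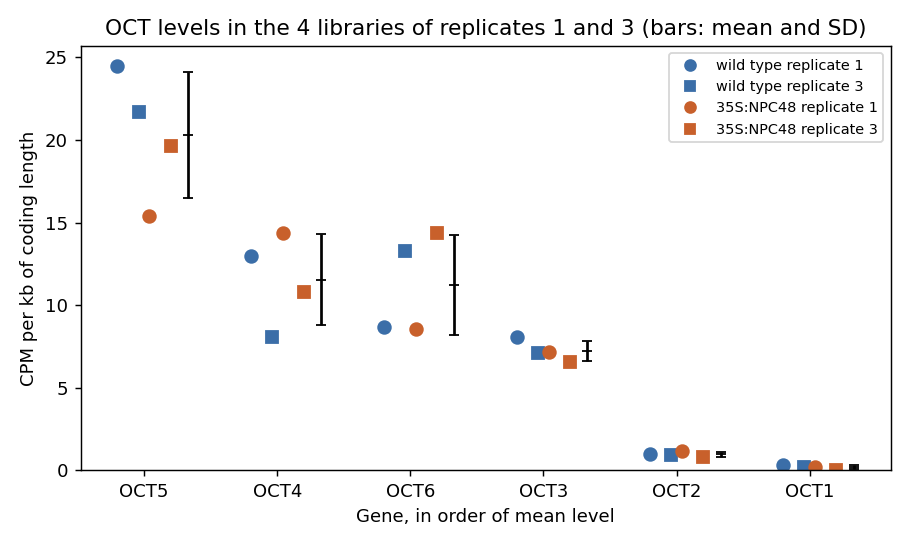
CPM per kb of coding length of each OCT gene in the 4 libraries of replicates 1 and 3, with the mean and SD beside them. OCT5 is highest at a mean of 20.3 and OCT1 lowest at 0.185, and the points of OCT4 and OCT6 overlap.

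The genes whose pattern was most like that of OCT1 were sought by the Euclidean distance between log2 CPM centred per gene over the 6 libraries, among all tested genes outside the family. The 5 nearest were IPS1, AT5G20790, PECP1, PS2 and PHT1;2, with distances from 2.25 to 3.76. IPS1 is a non-coding RNA that titrates the microRNA miR399, PECP1 (AT1G17710, given as PEPC1 in the reference) and PS2 (AT1G73010) belong to a phosphatase family that acts on phosphocholine, phosphoethanolamine or pyrophosphate, and PHT1;2 is a phosphate uptake carrier with near-identical copies, so its counts are uncertain. The replicate 2 libraries held 393 and 313 CPM of IPS1, where the other 4 held 0.267 to 0.650. PECP1 was at 0.0445, 848 and 0.0842 CPM for wild type replicates 1, 2 and 3, and at 1.39, 729 and 0 CPM for the same replicates of 35S:NPC48. AT5G20790, an uncharacterized protein gene, had 455 and 426 CPM in the libraries of replicate 2 and 2.05 to 3.12 CPM elsewhere. The likeness rests on replicate 2 standing apart from the other 4 libraries.

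All 13 tested genes of the low-phosphate list were at least 2-fold higher in replicate 2 in both genotypes, by a median log2 difference of 5.39 in wild type and 5.54 in 35S:NPC48, against -0.0031 and -0.0054 over all tested genes. The list includes SPX1, a phosphate sensor, with 1266 and 1004 CPM in the libraries of replicate 2 and 6.78 to 12.5 CPM elsewhere. The log2 differences of OCT1, 9.54 and 9.98, were above those of SPX1, 7.41 and 6.66, and below those of PECP1, 12.3 and 10.9. The other 5 OCT genes had differences between -0.12 and 0.64, below every gene of that list.

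**Figure D4:**
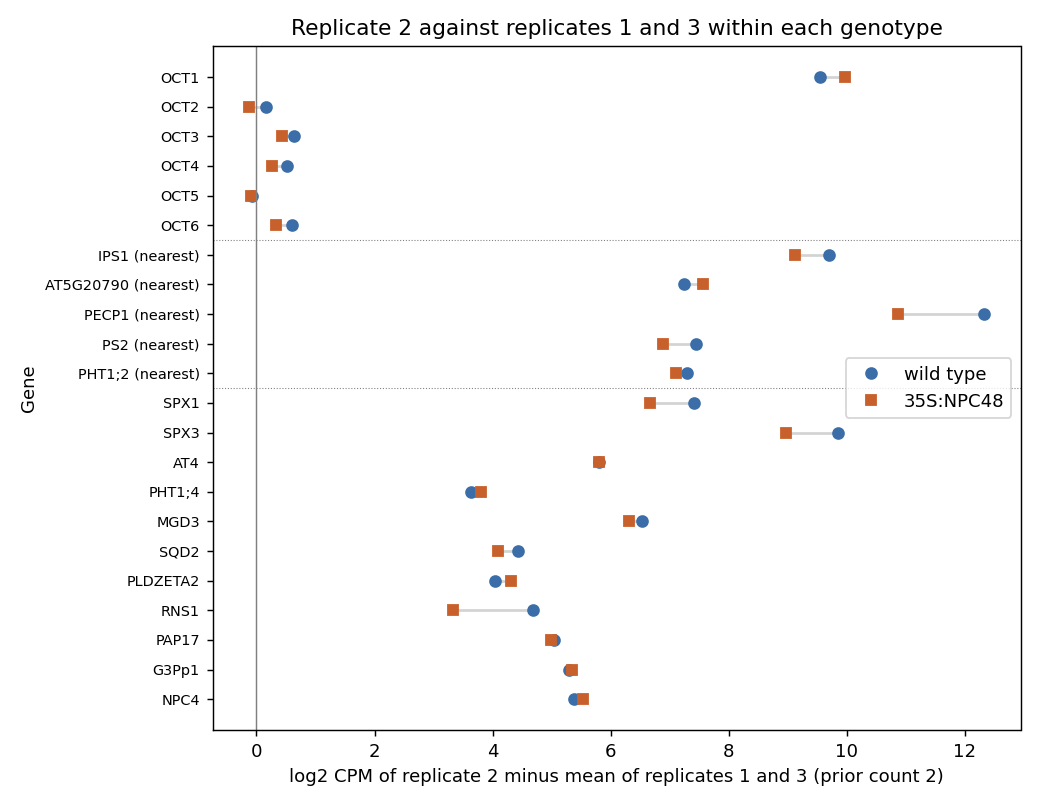
Log2 CPM of replicate 2 minus the mean of replicates 1 and 3, within wild type (circles) and 35S:NPC48 (squares), for the 6 OCT genes, the 5 genes nearest to OCT1 and the other low-phosphate genes. OCT1 lies at 9.54 and 9.98 among the low-phosphate genes, and OCT2 to OCT6 lie between -0.12 and 0.64.

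The P1BS element, written gnatatnc, reads the same on both strands and was searched in the 1000 bases before the annotated start of each gene. It was found once each before OCT1, OCT4 and OCT5, and not in the windows of OCT2, OCT3 and OCT6. It was present in 20.3% of such windows of 27443 protein-coding genes and in those of 9 of the 14 low-phosphate genes. The lines show 65 bases around each match, with the element in capitals, since 1 of these genes was high in replicate 2 and the others were not. They are from the RefSeq copy of TAIR10.1 and read 5′ to 3′ on the strand of the gene, for OCT1 at chr1:27537600-27537664 (plus strand), for OCT4 at chr3:7228974-7229038 (minus strand) and for OCT5 at chr1:29870201-29870265 (minus strand).
OCT1: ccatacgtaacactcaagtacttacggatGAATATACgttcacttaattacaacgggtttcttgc
OCT4: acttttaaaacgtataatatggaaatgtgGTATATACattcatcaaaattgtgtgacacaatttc
OCT5: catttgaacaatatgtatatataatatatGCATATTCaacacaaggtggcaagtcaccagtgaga
The first base of the element lies 561 bases before the start of OCT1, 212 before that of OCT4 and 452 before that of OCT5. A match is a description of letters and not of binding. OCT4 and OCT5, which have a match, were not at least 2-fold higher in replicate 2, and the part of the element in these levels was not tested.

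The level of NPC48 was not analysed, so a difference of 35S:NPC48 from wild type belongs to the genotype and cannot be assigned to NPC48. The comparison asks which genes differ between the genotypes. None of the OCT genes passed the test for such a difference. In edgeR's quasi-likelihood test on all 6 libraries, 0 of the 6 members were called at an adjusted p under 0.05, where 0.0102% of all tested genes were called, and each had an adjusted p of 1.00. With the replicate number as a block, 0 of 6 were called, where 1.21% of tested genes were. At an unadjusted p under 0.05 the count was 1 of 6 without the block, namely OCT5, where 3.54% of tested genes passed. With the block it was 2 of 6, OCT1 and OCT5, where 11.2% passed. The labels do not tell whether the replicates were grown as separate cultures. The p-values thus refer to the spread among these 6 libraries, which may be technical, and in bulk RNA fewer cells of a type and less RNA per cell cannot be told apart.

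OCT5 was the member whose genotypes did not overlap. Its wild type libraries lay between 33.6 and 37.9 CPM and those of 35S:NPC48 between 23.9 and 30.4 CPM, with a gap between the groups. The means of wild type and 35S:NPC48 were 35.1 ± 2.43 and 26.5 ± 3.40 CPM (SD, n = 3 per genotype), a log2 fold change of -0.40 ± 0.14 (SE), with an unadjusted p of 0.0248 in edgeR across all genes. With the block it was -0.40 ± 0.12 (edgeR unadjusted p = 0.0112, adjusted p = 0.247). It was lower in 35S:NPC48 in all 3 replicates. It is 1 of 6 members without overlap between groups, a property of 7.76% of tested genes. The 2 highest of the shoot marker sums, 175 and 192 CPM, belonged to a wild type library at 33.6 CPM of OCT5 and to the 35S:NPC48 library with the lowest OCT5, at 23.9 CPM, and their part in the difference was not tested. Without replicate 2 of both genotypes the log2 fold change was -0.40 ± 0.19, and it stayed between -0.52 and -0.33 in all 14 alternative fits, with adjusted p from 0.247 to 1.00. With genotype alone, OCT5 missed an edgeR unadjusted p under 0.05 without wild type replicate 1 or 35S:NPC48 replicate 1. It also missed it without 35S:NPC48 replicate 2 and without replicate 2 of both genotypes.

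OCT1 could hardly be compared between genotypes without a block. Its mean was 127 ± 219 CPM over the wild type libraries and 85.4 ± 148 CPM over those of 35S:NPC48 (SD, n = 3 per genotype), and the 95% interval of the log2 fold change of -0.57 ran from -6.67 to 5.54. With the block it was -0.63 ± 0.18 (edgeR unadjusted p = 0.00866, adjusted p = 0.223), a larger fold than that of OCT5 in the same fit. The CPM of 35S:NPC48 was lower in all 3 replicates. Wild type and 35S:NPC48 held only 11 and 3 reads in replicate 1, and 8 and 1 in replicate 3. The blocked value rests mainly on replicate 2, where the CPM of 35S:NPC48 was 0.672 times that of wild type (exact 95% interval 0.649 to 0.696, for these 2 libraries and counting error alone). In the same pair of libraries, 12 of the 14 low-phosphate genes were also below 1, with a median ratio of 0.844 and a range from 0.699 for RNS1 to 1.06 for PAP17, where the median of all tested genes was 1.01. Of the tested genes, 5.73% had a ratio as low as that of OCT1. Without replicate 2, OCT1 did not pass the filter on low counts, so it has no fold change there.

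The remaining members gave bounds on a genotype difference. OCT3 averaged 14.0 ± 3.90 CPM for wild type and 11.97 ± 2.25 CPM for 35S:NPC48, a log2 fold change of -0.23 with a 95% interval from -0.79 to 0.34. For OCT4, with 18.9 ± 5.46 and 21.1 ± 3.52 CPM, it was 0.16 (-0.42 to 0.74). OCT4 was the 1 member above 0, and it was higher in 35S:NPC48 in all 3 replicates as paired by number. With replicates 1 and 3 exchanged it was not, as 35S:NPC48 replicate 3 had 17.1 CPM and wild type replicate 1 had 20.5 CPM. OCT2, with 1.54 ± 0.115 and 1.51 ± 0.270 CPM, had -0.045 (-0.72 to 0.63), and OCT6, with 20.0 ± 5.98 and 19.3 ± 5.11 CPM, had -0.040 (-0.70 to 0.62). Each of these 4 intervals leaves room for a change of over 1.5-fold in 1 direction or both. With the block the intervals were -0.51 to 0.080 for OCT3, -0.093 to 0.47 for OCT4 and -0.31 to 0.23 for OCT6, all within 1.5-fold, while that of OCT2, -0.73 to 0.62, was not. The median over the 6 members was -0.14, beside 0.0080 over all tested genes.

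**Figure D5:**
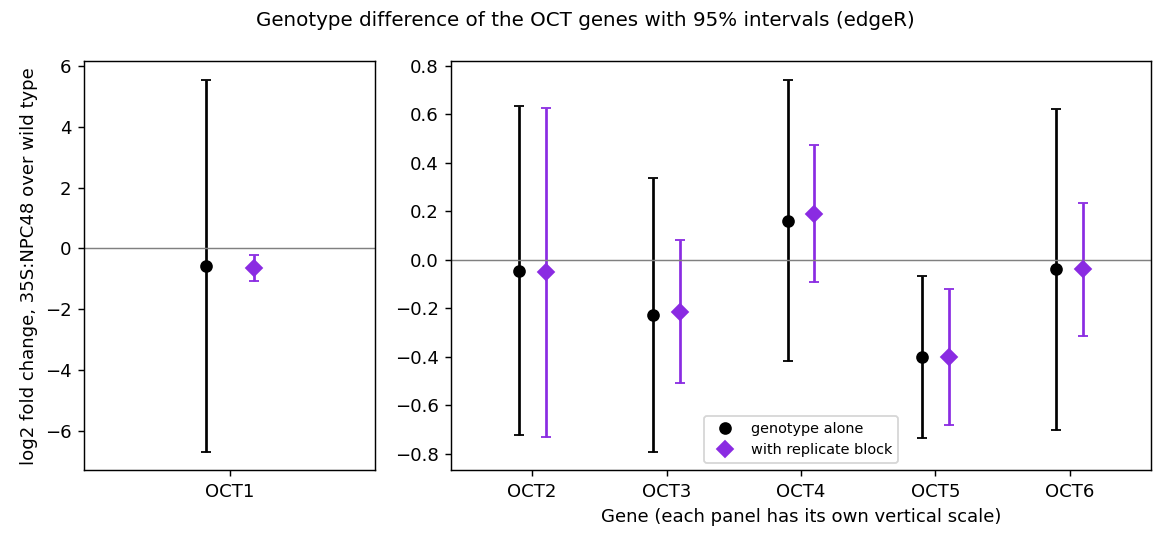
Log2 fold change of 35S:NPC48 over wild type with its 95% interval for each OCT gene, from edgeR with genotype alone (circles) and with the replicate block (diamonds), with a separate vertical scale for OCT1. The interval of OCT5 lies below 0 in both fits, from -0.73 to -0.067 and from -0.68 to -0.12, and no member was called after adjustment over all genes.

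The pathways that make, move and break down likely substrates were measured with fixed lists. Of all tested genes, 0.0102% were called without the block and 1.21% with it, so 0 calls in a short list say little. Of 5 polyamine uptake carriers, 0 were called between genotypes with or without the block, with a median log2 fold change of 0.032. The most abundant were AT3G19553, named PUT5 in the reference, at a mean of 45.7 CPM, and PUT2 at 37.8 CPM. Polyamine synthesis had 9 tested genes of 12 and polyamine oxidation 7 of 9, also with 0 calls, and medians of -0.053 and 0.21, which were 0.020 and 0.059 without replicate 2. ADC2, an arginine decarboxylase that starts polyamine synthesis, was at 105, 229 and 128 CPM for replicates 1, 2 and 3 of wild type, and at 141, 243 and 142 CPM for 35S:NPC48. SPDS1, a spermidine synthase, had a mean of 134 CPM. PAO4, a peroxisomal polyamine oxidase, stood in the same order at 211, 475 and 266 CPM, and at 199, 439 and 242 CPM for 35S:NPC48, and CuAO3, a copper amine oxidase gene, a mean of 245 CPM. ADC2 and PAO4 were thus highest in replicate 2 of both genotypes, although no gene of these 3 lists was at least 2-fold higher there than in both other replicates.

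Among genes of choline and phosphocholine metabolism, 12 of 15 were tested and 0 were called between genotypes, with a median of -0.054, which was 0.029 without replicate 2. PECP1 and PS2, which the low-phosphate list holds too, were the 2 at least 2-fold higher in replicate 2, where 2.24% of all tested genes were. PS2 had 613 and 581 CPM there and 3.20 to 5.35 CPM elsewhere. BOU, a mitochondrial carrier gene of the carnitine carrier type, lay between 30.1 and 37.5 CPM in all libraries. SAMDC2, PAO2, PAO3, PMT1 and PMT2 of these lists, and COR15A of the next, were listed at 0 in all 6 libraries, which was not read as absence of expression.

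Of 10 drought, cold and salt markers, 7 were tested, 0 were called between genotypes, and all 7 had a log2 fold change below 0, with a median of -0.21. Of all 19608 tested genes, 10145 were above 0. When wild type replicate 2 alone was left out, which leaves replicate 2 in 35S:NPC48 only, 5 of the 7 markers were above 0. Without replicate 2 of both genotypes 0 of the 7 were above 0, with a median of -0.26. With the block it was 0 of 7, with a median of -0.28, and without 35S:NPC48 replicate 1 or 3 it was 2 of 7. The most abundant were the dehydrin genes COR47, at means of 1871 ± 232 CPM for wild type and 1701 ± 155 CPM for 35S:NPC48, and ERD10, at 416 ± 83.8 and 359 ± 67.2 CPM (SD, n = 3 per genotype). In replicate 2 of both genotypes 3 of the 7 were at least 2-fold higher, where 2.24% of all tested genes were. KIN1, a cold-induced gene named after its values were seen, had 31.7 and 28.0 CPM in those libraries and 1.05 to 1.85 CPM elsewhere. Of the 6 OCT genes, OCT1 was at least 2-fold higher in replicate 2 by the same rule, which the choice of the family fixes, and OCT2 to OCT6 were not. The vascular markers, 12 genes that were all tested, had a summed level between 1126 and 1730 CPM, lowest in both libraries of replicate 2, where OCT1 was high. Most of that gap lay in SKOR and PHO1. Without these genes, which were singled out after their values were seen, the sum was 687 and 666 CPM in the libraries of replicate 2 and 607 to 724 CPM elsewhere. Replicate 2 was above the mean of the others for 7 of the 12 genes in wild type and 4 of 12 in 35S:NPC48, with median log2 differences of 0.020 and -0.28. PHO1, a phosphate exporter of the root stele, was at 752, 428 and 452 CPM for wild type replicates 1, 2 and 3, with 767, 455 and 586 CPM for 35S:NPC48, and XCP2, a xylem protease gene, a mean of 185 CPM. SKOR, a potassium channel of the stele, had 10.9 and 26.2 CPM in the libraries of replicate 2 and 82.7 to 239 CPM elsewhere. It was the 1 gene of all lists called between genotypes, with the block only, with means of 83.5 ± 73.0 CPM for wild type and 161 ± 117 CPM for 35S:NPC48 (SD, n = 3 per genotype, blocked log2 fold change 1.08 ± 0.16, edgeR adjusted p = 0.0186 with the block and 1.00 without). Without replicate 2 it was not called, at 0.99 ± 0.21 with the block (edgeR adjusted p = 0.0796). SKOR lies in a stretch of chromosome 3 between AT3G01280 and AT3G03010, whose bounds were chosen with earlier results of these data known. The counts in it are thus a description and no test. With the block 122 of its 168 tested genes were called higher, where 1.21% of all tested genes were called. With the block and without replicate 2, 77 of them were called, beside 118 of 19625 tested genes in all. Without the block 165 of these 168 genes had a log2 fold change above 0. The median of the stretch was 0.98 with and without the block, beside 1.08 for SKOR with the block. SEOR1 of the vascular list, named after its values were seen, lies in the stretch too. It was not called, at 0.68 ± 0.16 with the block (edgeR adjusted p = 0.141). OCT4, on the same chromosome, lies outside that stretch.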

How the data were processed

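The deposited values are whole-number read counts for each gene ID, 1 file per library, without normalization, judged from the values and the file headers. The submitters' processing notes name TAIR10 as the genome build, and list STAR 2.5.2b, Trimmomatic 0.36, Subread 1.6.5 and featureCounts. The sources used here do not state the annotation release, the strand setting or how multiply matching reads were treated. From the 29613 gene IDs, filterByExpr (minimum count 10, minimum total 15) kept 19608 in R 4.3.3. All 6 OCT genes passed, OCT1 through both replicate 2 libraries and wild type replicate 1, at a limit of 0.478 CPM in 3 libraries. CPM used TMM-scaled totals, and log2 CPM a prior count of 2. Genotypes were compared with edgeR 4.0.16 (quasi-likelihood F test, genotype alone, Benjamini-Hochberg adjustment over all tested genes, called at 0.05), and the standard error was taken from the F statistic. DESeq2 1.42.0 and limma 3.58.1 (voom) were alternatives.

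The labels give both genotypes replicate numbers 1, 2 and 3. Deviations from the group means correlated at 0.53, 0.83 and 0.37 between equal numbers across genes, and equal numbers were taken as pairs. Replicates 1 and 3 were hardly told apart, with 0.39 and 0.34 in the exchanged order. Each group mean includes replicate 2, so its large deviation pushes replicates 1 and 3 the same way in both genotypes. The correlations therefore bear on the pairing of replicate 2 only, and that of replicates 1 and 3 rests on their numbers. No 2 libraries of a group were copies of each other (the chi-square statistic divided by its degrees of freedom lay between 16.3 and 96.1).

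The members, the gene lists, the chromosome 3 stretch and the rule for named genes (all members, the 5 genes nearest to OCT1, and per list the 2 most abundant, any called gene and SPX1) were chosen with earlier results of these data known. The reference was TAIR10.1, whose genome and annotation were used together, and no coordinate was carried over from or to TAIR10. Of the gene IDs, 28494 matched it. Coding sequences were aligned with Biopython 1.88 (match 2, mismatch -1, gap opening -5, extension -0.5).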

Additional observations from a re-analysis of the deposited data

How the results depend on the processing

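The number of OCT genes called between genotypes was 0 in the main test and in all 14 alternatives, and the number at least 2-fold higher in replicate 2 was 1 under every scaling, prior count and fold limit tried (1.5-fold and 4-fold included). The log2 difference of OCT1 in replicate 2 stayed between 9.33 and 9.78 in wild type and between 9.24 and 10.7 in 35S:NPC48. The replicate block changed no call of a member. The number of genes called in all, 2 of 19608 with 695 at an unadjusted p under 0.05, became 237 with the replicate block, 153 with DESeq2 without the low-count filter, 0 with limma-voom (698 unadjusted), 46 without replicate 2 of both genotypes and 118 with the replicate block and without replicate 2, a fit chosen after seeing the data. It was between 0 and 2 when 1 library was left out. The cause of these differences was not tested. Directions of small differences turned. For OCT6 the log2 fold change was 0.020 with limma-voom, 0.073 without replicate 2 and 0.043 with the block and without replicate 2, and for OCT2 it was 0.035 and 0.041 in the latter 2 fits. With 1 library left out, the range was -9.77 to 7.68 for OCT1, where leaving out a library of replicate 2 leaves 1 genotype without one, and 0.0097 and 0.015 without 35S:NPC48 replicate 1 or 3. It was -0.18 to 0.048 for OCT2, -0.40 to 0.021 for OCT3, -0.058 to 0.34 for OCT4 and -0.26 to 0.18 for OCT6. DESeq2 gave no p for OCT1. The same fits, added for the gene lists after seeing the data, called 0 list genes other than SKOR, which passed with the replicate block alone. By exonic length, an alternative added after seeing the data, 4 of 6 genes kept their place in the order of levels. Depth limits OCT1 in replicates 1 and 3, with 1 to 11 reads per library, and OCT2, with 17 to 35.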
